A study of Rattus norvegicus with 12 samples.

Results

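The genes described here join epithelial cells to each other or belong to the splicing and protease control of the epithelial state. They are Epcam, Cdh1, the claudins Cldn3, Cldn4 and Cldn7, Ocln, Esrp1, Esrp2, Elf3 and Spint2. They were chosen as named epithelial junction and splicing genes, with earlier results of these data known. They were found in the deposited count table by Entrez identifier, giving 10 of its 16511 genes. Of the 10, 9 had reads, and 8 passed the filter on low counts and were tested.

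RNA had been sequenced from snap-frozen mammary glands of Sprague-Dawley rat offspring at postnatal day 21 (PND21), with 1 gland taken per litter. That tissue is given by the series' own text, whereas the study's methods describe RNA of epithelium cut out by laser capture, for high butterfat groups with and without bisphenol A, and which preparation holds for these libraries is not settled here. The HFB group (6 libraries, numbered 1 to 6) came from dams given a high fat butter diet, and the CTL group (6 libraries, numbered 7 to 11 and 14) from dams given the control AIN diet. The labels name no bisphenol A. By the study's methods the dams ate these diets from before mating until birth, after which all animals were kept on the control diet. The series' own text gives exposure times that differ from each other, and the time that holds for these dams is not known here. Total counts ranged from 2320267 to 2760871 in HFB and from 2403464 to 2944680 in CTL. Levels are given as CPM, the counts of a gene scaled to a common library size after TMM scaling, and 3 counts correspond to between 1.02 and 1.29 CPM in a library before that scaling. In every library the adipocyte markers summed to at least 14291 CPM and the fibroblast markers to at least 14272 CPM. No pair of libraries of the same diet agreed within sampling noise, so each was counted as 1 replicate.

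In a mammary duct the luminal cells are sealed to each other near the lumen by tight junctions, in which claudins and occludin form the barrier, and held together below them by adherens junctions built on E-cadherin. Epcam binds claudins at the lateral membrane, and the Esrp proteins direct the epithelial form of splicing of many transcripts. In RNA of a gland taken with its fat pad these epithelial transcripts are diluted by those of other cells, and in bulk tissue fewer cells of a type and less RNA per cell cannot be told apart.

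Libraries HFB 5, HFB 6 and CTL 14 stood apart from the others by a measure over 1136 short and 1931 long genes, chosen after the data had been seen. In each library the median log2 deviation of genes spanning at least 60 kb of the genome was subtracted from that of genes spanning under 5 kb, and this span imbalance was 0.64 in HFB 5, 0.85 in HFB 6 and 0.37 in CTL 14. In the other 9 libraries it lay between -0.36 and 0.02. The rule for values far from their diet, used at the end of this report, flagged no library for the span imbalance. HFB 6 and CTL 14 also carried most lymphoid RNA, with a summed level of the lymphoid markers of 724 and 691 CPM. The list had 6 of its 7 genes in the table, Cd79b was its most abundant gene and no marker was at 0 in all libraries. In HFB 1 to HFB 5 the sum was 126, 62.3, 12.1, 2.48 and 11.7 CPM, and in CTL 7 to CTL 11 it was 17.0, 5.25, 25.3, 13.2 and 2.48 CPM. The adipocyte markers (6 of 6 in the table, led by Fabp4) summed to 16939 CPM in HFB 6 and 14291 CPM in CTL 14, and to between 30699 and 39727 CPM in the other 10 libraries. Fold changes between the diets are therefore also given without HFB 5, HFB 6 and CTL 14, a choice made after the data had been seen.

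**Figure D1:**
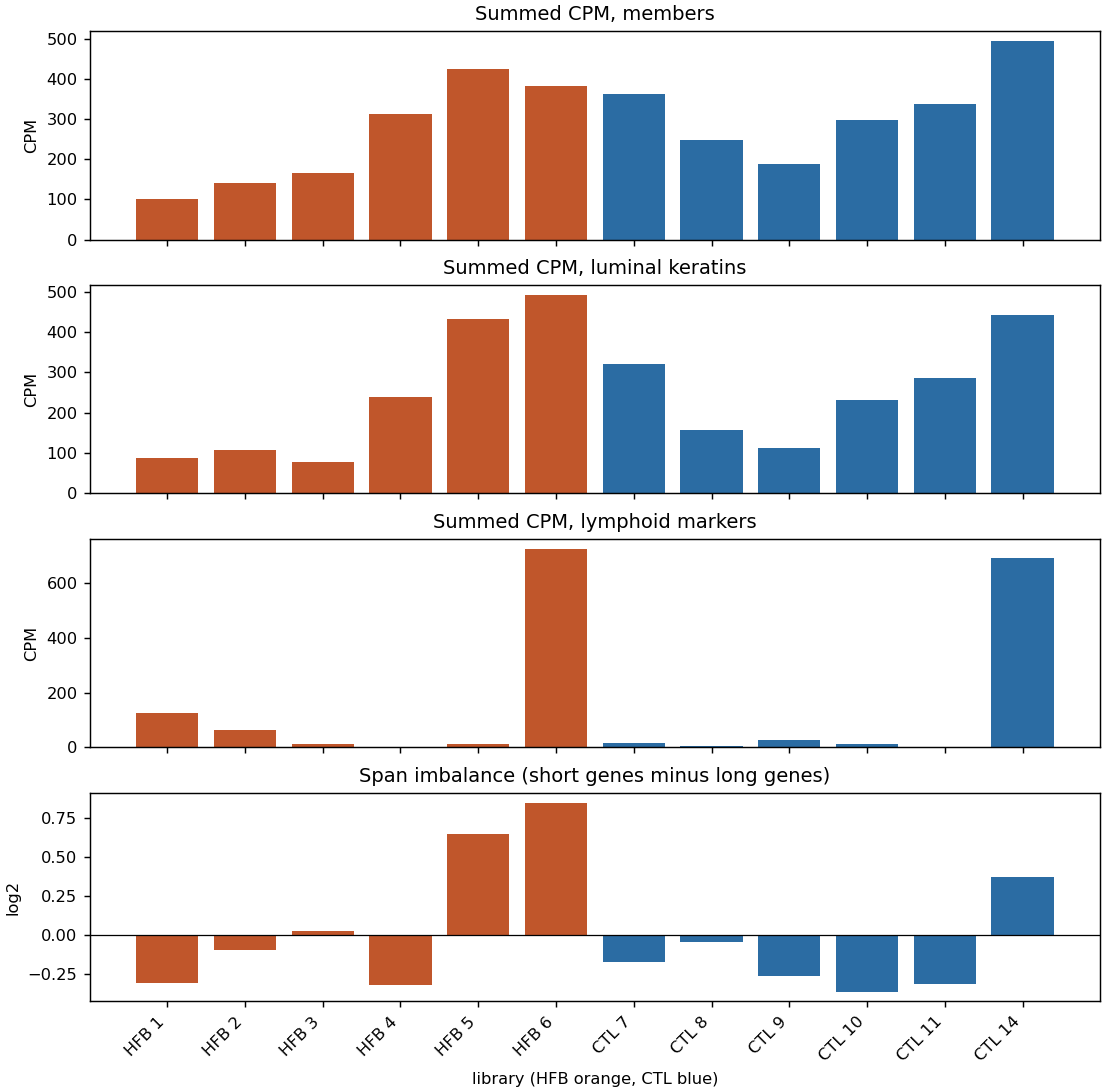
Bars give, for each of the 12 libraries, the summed CPM of the 10 genes, of the luminal keratins and of the lymphoid markers, and the span imbalance in log2 units (HFB orange, CTL blue). The 10 genes summed to 101.5 CPM in HFB 1 and 494 CPM in CTL 14, and the span imbalance is highest in HFB 6, HFB 5 and CTL 14.

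Summed over the 10 genes, the level was 255 ± 136 CPM (SD, n = 6) in HFB and 321 ± 105 CPM (SD, n = 6) in CTL. HFB 1, HFB 2 and HFB 3 had the lowest sums of the 12 libraries, 101.5, 140.2 and 166 CPM, and CTL 9 followed with 189 CPM. The highest sum, 494 CPM, was in CTL 14, ahead of HFB 5 with 424 CPM and HFB 6 with 383 CPM. The HFB libraries therefore held both the lowest values and some of the highest. Without HFB 5, HFB 6 and CTL 14 the sum was 180 ± 92.8 CPM (SD, n = 4) in HFB and 287 ± 69.6 CPM (SD, n = 5) in CTL. The 3 libraries left out are those with the highest sums, and 2 of them are HFB. Leaving them out by itself lowers the sum in HFB relative to CTL.

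Of the 8 genes tested, 8 had a fitted log2 fold change under 0, against 50.0% of the 9382 genes tested, and 0 passed the threshold of 0.05 on the adjusted p of edgeR's quasi-likelihood test, against 0% of the genes tested. DESeq2 also called 0 genes. An unadjusted p under 0.05 was reached by 220 genes (2.34%) in edgeR and by 320 genes in DESeq2, and by 0 of the 8. The libraries of the diets overlapped for each of the 9 genes with reads, and 0.139% of the genes tested had no overlap. The median log2 fold change over the 8 genes was -0.43, against 0.00 over the genes tested. Most of the 8 rose and fell together between libraries, as described below, so their shared direction does not count as 8 separate observations.

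Markers of other cells also differed between the diets without passing the threshold. Of the erythroid markers, genes of red blood cells, 4 of 4 tested were higher in HFB, with a median log2 fold change of 0.85, and of 0.93 without HFB 5, HFB 6 and CTL 14 and 1.04 with the span imbalance as a covariate. Of the skeletal muscle markers 6 of 6 were higher, with a median of 0.42, but 2 of 6 without those libraries (median -0.105) and 3 of 6 with the span imbalance as a covariate (median -0.019). The myoepithelial and smooth muscle markers were lower in HFB in 4 of 4, with a median of -0.235, and this was -0.69 (4 of 4) without the 3 libraries and -0.89 (3 of 4) with the covariate, where the median of the 8 genes was -0.67 and -0.70. The fibroblast markers were lower in 5 of 5, with a median of -0.11, against -0.275 (5 of 5) and -0.069 (4 of 5) in the same fits. The adipocyte markers were lower in 4 of 6, with a median of -0.096, but in 3 of 6 without the 3 libraries (median 0.01) and in 0 of 6 with the covariate (median 0.30). The 2 skin keratinocyte markers tested were lower in HFB over the 12 libraries, without the 3 libraries and with the covariate. Their medians were -0.679, -1.175 and -0.855. Cd79b, the lymphoid marker tested, was at 0.305, 1.374 and -0.682 in the same fits. What part the RNA of these cells has in the values of the 8 genes was not tested.

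The promoters of 6 of the 10 genes, all but Cdh1, Cldn4, Esrp1 and Esrp2, were taken from RefSeq (GRCr8 assembly), each covering 250 bases before to 50 after the start of the gene. Shown here are those of the genes that passed the filter on low counts, Epcam at chr6:12649629-12649928 (minus strand), Cldn7 at chr10:55188420-55188719 (plus strand), Ocln at chr2:33441149-33441448 (minus strand) and Spint2 at chr1:93708042-93708341 (minus strand), read 5′ to 3′ along the gene. These genes moved together between libraries as described below, and so did Elf3, which did not pass the filter and is not shown. Capitals mark matches on either strand to the E-box CACCTG and the GC box GGGCGG, which do not overlap each other here.
Epcam: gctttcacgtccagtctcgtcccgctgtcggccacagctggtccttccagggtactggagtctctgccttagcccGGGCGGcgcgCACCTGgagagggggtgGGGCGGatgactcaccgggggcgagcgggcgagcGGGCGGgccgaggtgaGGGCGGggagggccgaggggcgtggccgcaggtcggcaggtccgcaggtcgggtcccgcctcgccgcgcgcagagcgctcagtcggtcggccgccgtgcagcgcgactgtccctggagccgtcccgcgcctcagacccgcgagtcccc
Cldn7: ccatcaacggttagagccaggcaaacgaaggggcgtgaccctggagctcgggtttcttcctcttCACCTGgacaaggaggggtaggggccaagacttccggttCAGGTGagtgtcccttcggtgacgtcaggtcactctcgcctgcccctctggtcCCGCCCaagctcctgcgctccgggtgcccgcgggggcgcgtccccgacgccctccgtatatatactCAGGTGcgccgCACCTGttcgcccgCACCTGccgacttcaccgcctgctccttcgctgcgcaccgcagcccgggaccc
Ocln: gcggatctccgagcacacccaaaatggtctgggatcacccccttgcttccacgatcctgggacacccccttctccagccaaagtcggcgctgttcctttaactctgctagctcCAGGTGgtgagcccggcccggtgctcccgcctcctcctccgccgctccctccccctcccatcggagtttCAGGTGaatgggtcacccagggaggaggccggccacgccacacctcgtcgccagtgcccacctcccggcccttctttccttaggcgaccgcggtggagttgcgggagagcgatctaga
Spint2: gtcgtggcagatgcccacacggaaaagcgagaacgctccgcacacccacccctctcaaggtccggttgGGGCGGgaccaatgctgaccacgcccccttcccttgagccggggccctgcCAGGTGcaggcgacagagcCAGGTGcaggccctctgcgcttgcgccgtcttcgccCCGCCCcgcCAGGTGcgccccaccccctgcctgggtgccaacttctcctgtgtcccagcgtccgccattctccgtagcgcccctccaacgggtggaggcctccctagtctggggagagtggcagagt

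The E-box letters, the core sequence bound by Snail and Zeb repressors, occurred 5 times in the Cldn7 window, 3 times in Spint2, 2 times in Ocln and 1 time each in the Epcam, Cldn3 and Elf3 windows. They were in 6 of the 6 windows and in 18.8% of the 33469 RefSeq windows. The GC box was in 4 of the 6 windows, with 4 matches in Epcam, and in 33.1% of all windows. The Ets core CAGGAAG was in the Elf3 window only, and in 12.5% of all windows. The Grainyhead-like motif AACCNGTT and the TATA box TATAAA were in 0 of the 6 windows and in 2.10% and 14.2% of all windows. The 6 windows were rich in G and C, from 58.0% in Cldn3 to 75.7% in Epcam, against a median of 51.7% over all windows. A match describes the letters and not the binding of a factor.

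Epcam (Entrez 171577) encodes an adhesion protein of the lateral membrane that is used as a surface marker of epithelium. Its level in HFB ran from 13.6 CPM in HFB 1 to 86.0 CPM in HFB 5 with a median of 39.3 CPM, and in CTL from 39.5 CPM in CTL 9 to 96.3 CPM in CTL 7 with a median of 77.6 CPM. HFB 1, HFB 2 and HFB 3 lay below every CTL library, while HFB 4, HFB 5 and HFB 6 lay within the CTL range, so the diets overlapped. The fitted log2 fold change was -0.63 (95% confidence interval -1.48 to 0.21, adjusted p = 0.999), a level in HFB of 0.644 times that in CTL with an interval from 0.358 to 1.16. Without HFB 5, HFB 6 and CTL 14 it was -0.99 (-1.87 to -0.11), with an adjusted p of 0.876. With HFB 5 kept, and only HFB 6 and CTL 14 left out, it was -0.64 (-1.55 to 0.28).

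Cdh1 (Entrez 83502) encodes E-cadherin, the calcium-dependent receptor of the epithelial adherens junction. In HFB it was lowest in HFB 1 with 10.7 CPM and highest in HFB 5 with 51.2 CPM (median 28.3 CPM), and in CTL it was lowest in CTL 9 with 20.2 CPM and highest in CTL 7 with 63.9 CPM (median 48.4 CPM). The same HFB libraries as for Epcam lay below every CTL library, with HFB 3 at 19.9 CPM just under CTL 9. The log2 fold change was -0.63 (-1.47 to 0.22, adjusted p = 0.999), and -0.98 (-1.87 to -0.09) without the libraries HFB 5, HFB 6 and CTL 14. Without HFB 6 and CTL 14 alone it was -0.67.

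**Figure D2:**
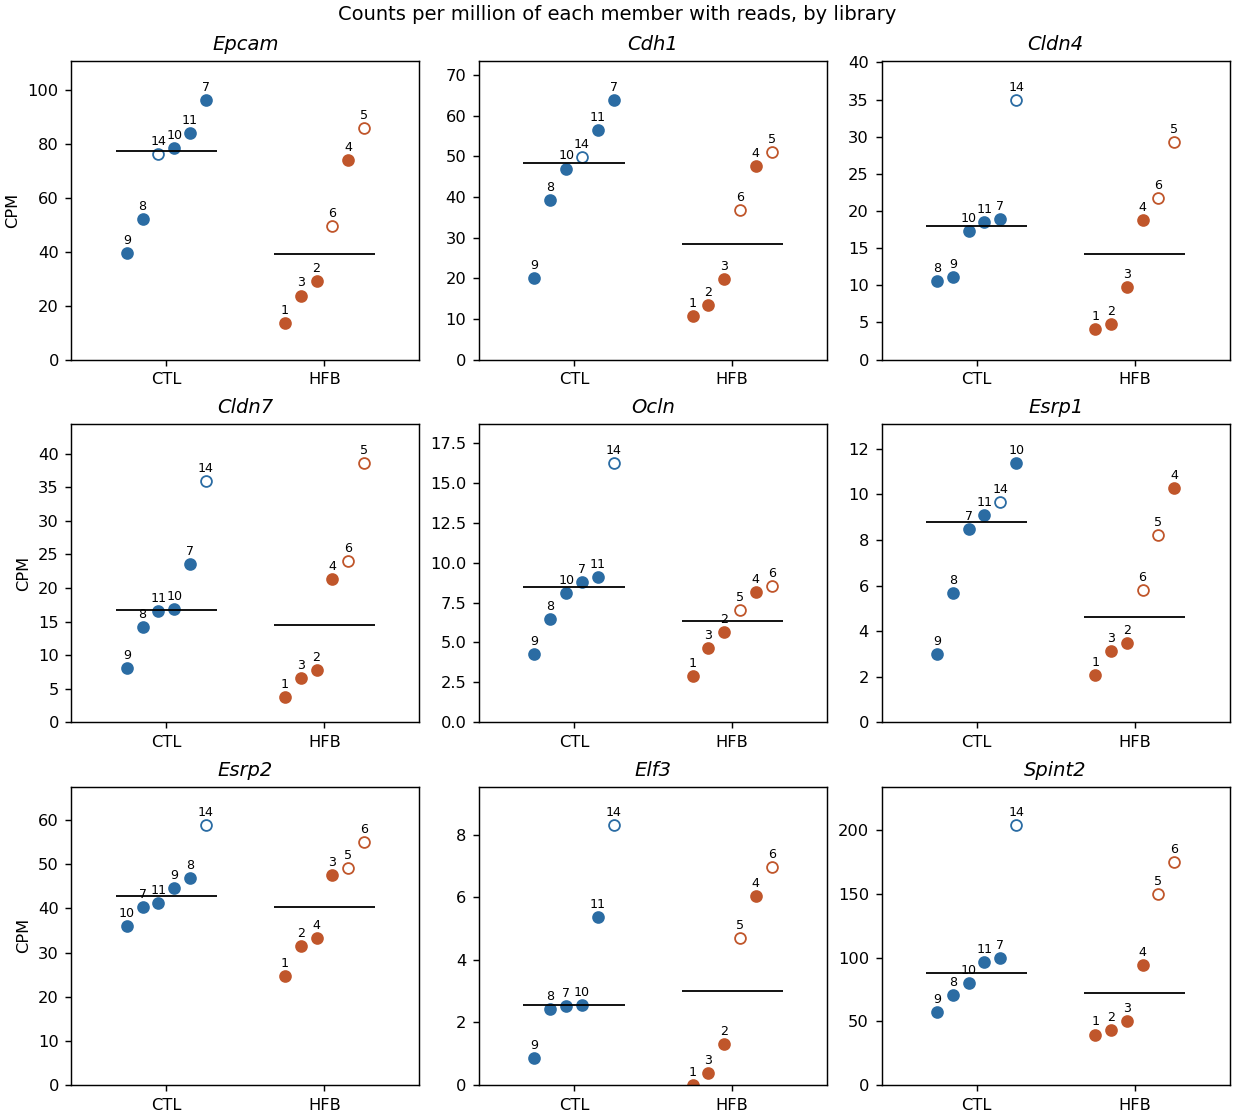
Each panel shows the CPM of 1 gene in the 6 CTL (blue) and 6 HFB (orange) libraries, labelled by library number, with a line at each diet's median and open symbols for HFB 5, HFB 6 and CTL 14. HFB 1 to HFB 3 lie below every CTL library for Epcam, Cdh1, Cldn4, Cldn7 and Spint2, and the diets overlap in each panel. Cldn3, with 0 counts, is not drawn.

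Among the claudins, the transmembrane strands of the tight junction, Cldn3 (Entrez 65130) had 0 counts in all 12 libraries, which allows a level of up to 0.0961 CPM over all libraries together (3 counts, counting error only). Cldn5, the claudin of blood vessels, also had 0 counts in every library, although the endothelial genes Pecam1, Tek and Cdh5 had a mean of 80.4, 48.5 and 27.3 CPM. The rules by which reads were counted are not given in the sources used here, so a count of 0 for these genes does not show that the transcript was absent. No fold change is given for Cldn3.

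Cldn4 (Entrez 304407) ranged from 4.13 CPM in HFB 1 to 29.3 CPM in HFB 5, with a median of 14.3 CPM, and in CTL from 10.5 CPM in CTL 8 to 34.9 CPM in CTL 14, with a median of 17.9 CPM. Cldn7 (Entrez 65132) ranged from 3.71 CPM in HFB 1 to 38.7 CPM in HFB 5, with a median of 14.5 CPM, and from 8.15 CPM in CTL 9 to 36.0 CPM in CTL 14, with a median of 16.7 CPM. For both claudins the highest library of each diet was among those that stood apart. The log2 fold change was -0.34 (-1.34 to 0.67) for Cldn4 and -0.18 (-1.29 to 0.92) for Cldn7, each with an adjusted p of 0.999. Both values depended on single libraries. Leaving out CTL 14 moved them to -0.035 for Cldn4 and 0.11 for Cldn7, leaving out HFB 1 turned Cldn7 to 0.0255, leaving out HFB 5 gave -0.64 and -0.59, and without HFB 5, HFB 6 and CTL 14 together they were -0.69 and -0.68. With HFB 5 kept, and only HFB 6 and CTL 14 left out, they were -0.20 and -0.033.

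Ocln (Entrez 83497) encodes occludin, a membrane protein of the tight junction strand. It lay between 2.89 and 8.53 CPM in HFB, with a median of 6.33 CPM, and between 4.29 and 16.3 CPM in CTL, with a median of 8.45 CPM. Only HFB 1 lay below every CTL library, and CTL 14 was well above the next library, CTL 11 with 9.08 CPM. The log2 fold change was -0.53 (-1.26 to 0.21, adjusted p = 0.999), and it was -0.24 without CTL 14 and -0.46 without HFB 5, HFB 6 and CTL 14. Without HFB 6 and CTL 14 alone it was -0.38.

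Esrp1 and Esrp2 encode RNA-binding proteins that direct epithelial splicing. Esrp1 (Entrez 500409) lay between 2.06 CPM in HFB 1 and 10.3 CPM in HFB 4, with a median of 4.64 CPM, and in CTL between 3.0 CPM in CTL 9 and 11.4 CPM in CTL 10, with a median of 8.79 CPM. Esrp2 (Entrez 307810) lay between 24.8 CPM in HFB 1 and 55.0 CPM in HFB 6, with a median of 40.4 CPM, and in CTL between 36.0 CPM in CTL 10 and 58.8 CPM in CTL 14, with a median of 42.9 CPM. HFB 4 and CTL 10 were the highest of their diet for Esrp1 and among the lower ones for Esrp2, while CTL 14 and HFB 5 were high for both. The log2 fold change was -0.52 (-1.40 to 0.36) for Esrp1 and -0.15 (-0.60 to 0.29) for Esrp2, both with an adjusted p of 0.999. Esrp1 was at -0.80 without HFB 4, and Esrp2 at -0.0387 without CTL 14, -0.0447 without HFB 1, -0.0882 without HFB 2 and -0.27 without HFB 6. The values were -0.65 and -0.29 without HFB 5, HFB 6 and CTL 14, and -0.47 and -0.17 without HFB 6 and CTL 14 alone.

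Elf3 (Entrez 304815), an Ets transcription factor of epithelia, had between 0 and 18 counts in HFB libraries and between 2 and 24 in CTL libraries and did not pass the filter. Its level ran from 0 CPM in HFB 1 to 6.98 CPM in HFB 6 and from 0.858 CPM in CTL 9 to 8.30 CPM in CTL 14. HFB 1, HFB 3, HFB 2 and CTL 9, the 4 libraries lowest in Epcam, also had the fewest Elf3 reads. With no filter its log2 fold change was -0.18 (-1.75 to 1.39, adjusted p = 0.998). It passed the filter in 7 of the fits that leave out 1 library. In 5 of these it lay between -0.37 (without CTL 9) and -0.0189 (without HFB 2), and it was at 0.077 without HFB 1 and 0.054 without HFB 3, so that filter and libraries both differ from the first value.

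Spint2 (Entrez 292770) encodes a membrane-bound inhibitor of serine proteases of the epithelial surface. Its level in HFB ran from 39.6 CPM in HFB 1 to 175 CPM in HFB 6, with a median of 72.1 CPM, and in CTL from 57.5 CPM in CTL 9 to 204 CPM in CTL 14, with a median of 88.0 CPM. HFB 1, HFB 2 and HFB 3 were again below every CTL library, and HFB 5 and HFB 6 were above all CTL libraries but CTL 14. The log2 fold change was -0.14 (-1.05 to 0.77, adjusted p = 0.999). It was 0.21 without CTL 14, 0.0152 without HFB 1, 0.0066 without HFB 2 and -0.51 without HFB 5, HFB 6 and CTL 14. Without HFB 6 and CTL 14 alone it was -0.11.

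**Figure D3:**
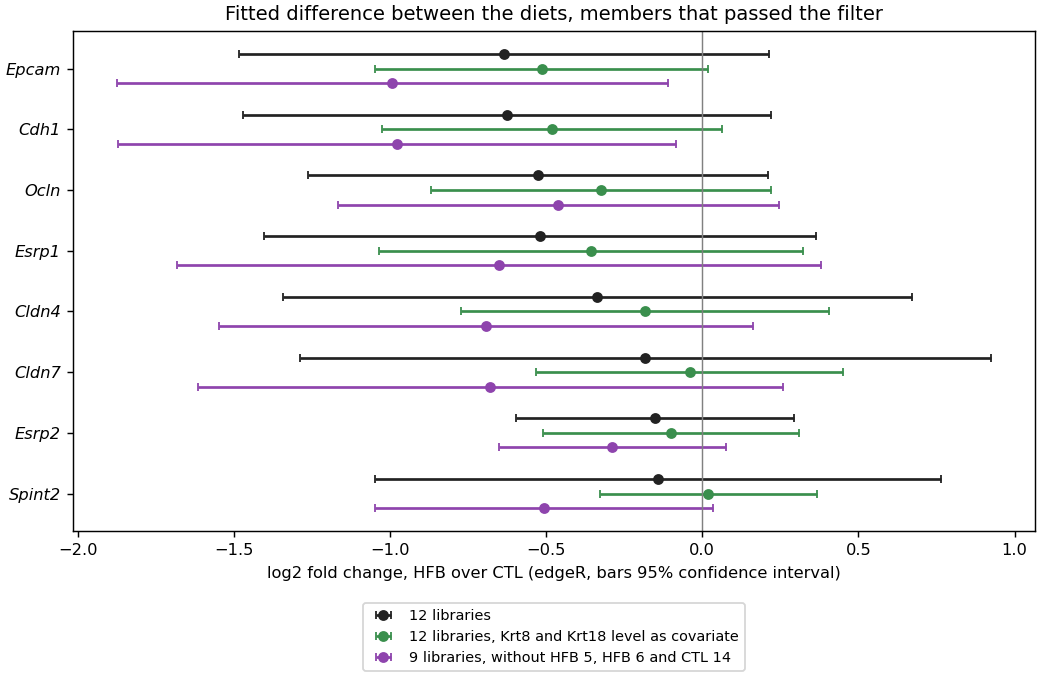
Points give the fitted log2 fold change of HFB over CTL and bars its 95% confidence interval in edgeR, for 12 libraries (black), for 12 libraries with the mean log2 CPM of Krt8 and Krt18 as a covariate (green) and for the 9 libraries left without HFB 5, HFB 6 and CTL 14 (purple). Each black interval includes 0, and Spint2 is at 0.0198 with the keratin covariate.

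With the level of the luminal keratins Krt8 and Krt18 as a covariate, 7 of the 8 genes kept a negative log2 fold change and the median moved from -0.43 to -0.25. Of all genes tested, 52.0% were below 0 in that fit. Cldn7 was at -0.0395, Cldn4 at -0.18 and Ocln at -0.32. Epcam was at -0.51 (-1.05 to 0.02, adjusted p = 0.608) and Cdh1 at -0.48 (-1.03 to 0.06, adjusted p = 0.608), while Spint2 moved to 0.0198 (-0.33 to 0.37). The genes with an unadjusted p under 0.05 then numbered 731 of 9382 tested, none of them among the 8, and 0 passed the adjusted threshold. Without HFB 5, HFB 6 and CTL 14 that number was 509 of 9480 tested, with 2 of the 8, Epcam and Cdh1, among them. With the span imbalance as a covariate it was 399 of 9382 tested, with 3 of the 8 among them. These were Ocln at -0.73 (-1.38 to -0.07), Esrp2 at -0.39 (-0.67 to -0.10) and Spint2 at -0.62 (-1.21 to -0.02). In both of these fits, chosen after the data had been seen, all 8 genes were below 0 and the adjusted p was at least 0.864 for each of them. The 3 libraries left out are the highest in the summed CPM of the 10 genes, and 2 of them are HFB. The lower values without them therefore follow in part from that choice. Of all genes tested, 48.1% were below 0 without the 3 libraries and 51.3% with the span imbalance as a covariate. What part the lymphoid and adipocyte RNA of these libraries has in the differences was not tested.

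Most of the 8 genes varied more between libraries than the typical gene did. The median SD of log2 CPM (prior count 2) over the 12 libraries was 0.80 for them and 0.40 for the 9382 genes tested. Cldn7 had an SD of 0.97, above that of 91.6% of the genes in the same class of mean expression, of 4 classes of equal size. Epcam, at 0.865, was above 95.3% of its class, and Cdh1, in the same class, was at 0.84. Spint2, at 0.77, was above 92.9% of its class. Esrp2 had an SD of 0.35, above 55.0% of its class, and Ocln, in the class of lowest expression, was above 45.4%. The spread was larger in HFB than in CTL for 7 of the 8 genes, Ocln excepted, and so it was for 70.8% of the genes tested. Without HFB 5, HFB 6 and CTL 14 it was larger in HFB for all 8, against 59.1% of the genes tested.

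**Figure D4:**
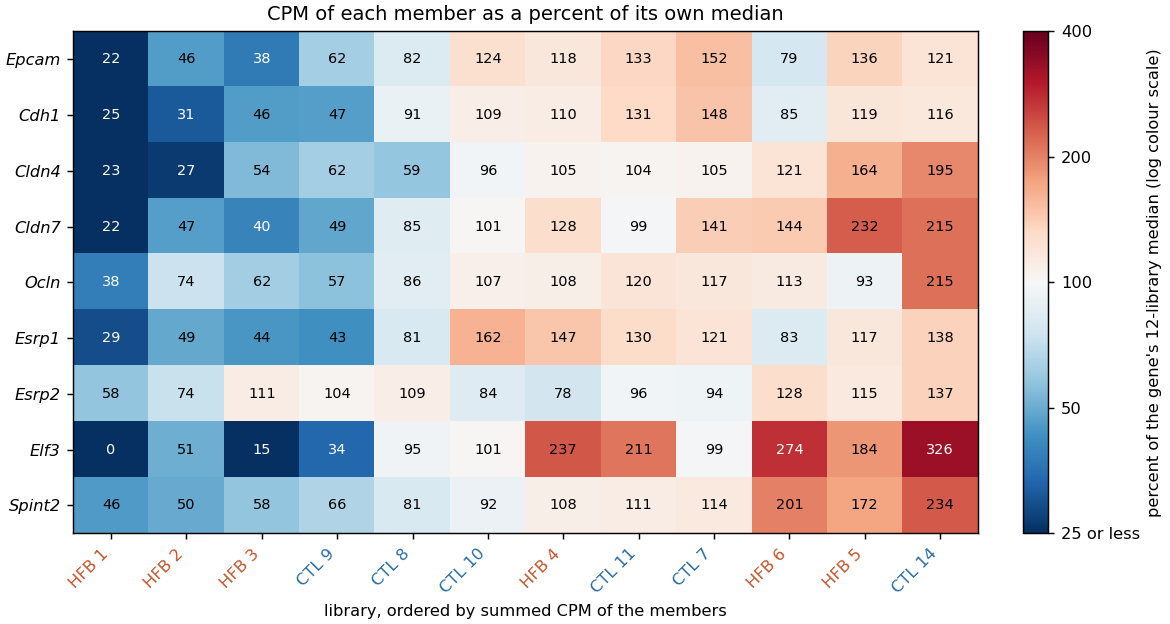
Each cell gives the CPM of a gene in a library as a percent of the gene's median over 12 libraries, with the libraries ordered by the summed CPM of the 10 genes (HFB names orange, CTL names blue) and a log colour scale that ends at 25 and 400 percent. HFB 1 holds 21.6% of the median for Epcam and 57.7% for Esrp2.

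The same libraries were low for most of the genes. HFB 1 and HFB 2 were among the 4 lowest libraries for all 8 genes tested, HFB 3 for 7 and CTL 9 for 6. CTL 14 was among the 4 highest for 7 of them, and HFB 5 and CTL 7 for 6. In HFB 1, Epcam stood at 21.6% of its median over the 12 libraries, Cldn7 at 22.2%, Cldn4 at 23.0% and Cdh1 at 24.9%. Esrp2 stood at 57.7%. From the lowest to the highest library Epcam varied 7.08-fold and Cdh1 5.96-fold, yet the ratio of Cdh1 to Epcam varied 1.81-fold. The ratio of Esrp1 to Epcam varied 1.99-fold, and those of Cldn7, Cldn4 and Ocln to Epcam 2.47-fold, 2.78-fold and 2.60-fold. For Spint2 and Esrp2 the ratio to Epcam varied 3.47-fold and 4.78-fold. It was highest in HFB 6 for Spint2 and in HFB 3 for Esrp2.

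Correlations between the 9 genes with reads were computed over the 12 libraries on log2 CPM. In all, 90 correlations were computed, and the permutation p-values of Pearson's r and Spearman's rho were adjusted together over all 180. All 36 pairs of genes had a positive r, with a median of 0.843, and 30 had an adjusted p under 0.05 by r and 25 by rho. Among the 44006271 pairs of the 9382 genes tested, which leave out Elf3, r was above 0 in 50.1%, its median was 0.003, and 8.84% of pairs had an r of at least 0.71, the lowest of those 30. The median r was 0.894 within HFB, 0.729 within CTL and 0.913 without HFB 5, HFB 6 and CTL 14. It was 0.731 after leaving out of each pair the 2 libraries farthest from the median of 1 of its genes. That gene was the one listed first at the start of the Results, or the one of the 9 where the other was a marker. Epcam and Cdh1 had the highest r of the pairs (r = 0.960, rho = 0.965, both permutation p = 1e-05, the smallest the resamples can give, adjusted p = 0.000257). Their r was 0.965 without HFB 1 and HFB 3, the 2 libraries farthest from the median of Epcam. Cldn4 and Cldn7 had r = 0.936 (permutation p = 1e-05, adjusted p = 0.000257) and rho = 0.972, and 0.933 without the 2 farthest libraries. Cldn4 and Spint2 had r = 0.935 and rho = 0.979 (permutation p = 1e-05 for both, adjusted p = 0.000257), and r was again 0.935 without the 2 farthest.

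Esrp2 departed from this pattern. The median r of its 8 pairs was 0.568, and 0.131 without the 2 farthest libraries. With its paralog Esrp1 it had r = 0.326 (permutation p = 0.301, adjusted p = 0.411) and rho = 0.098 (permutation p = 0.765, adjusted p = 0.835). Of its 8 pairs, 2 had an adjusted p under 0.05 by r, those with Cldn4 and Spint2. With Cldn4 r was 0.294 without HFB 1 and HFB 2, the 2 farthest for Cldn4. With Spint2 it was 0.478 without HFB 1 and CTL 14, the 2 farthest for Esrp2. These relations rested in part on the libraries left out.

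**Figure D5:**
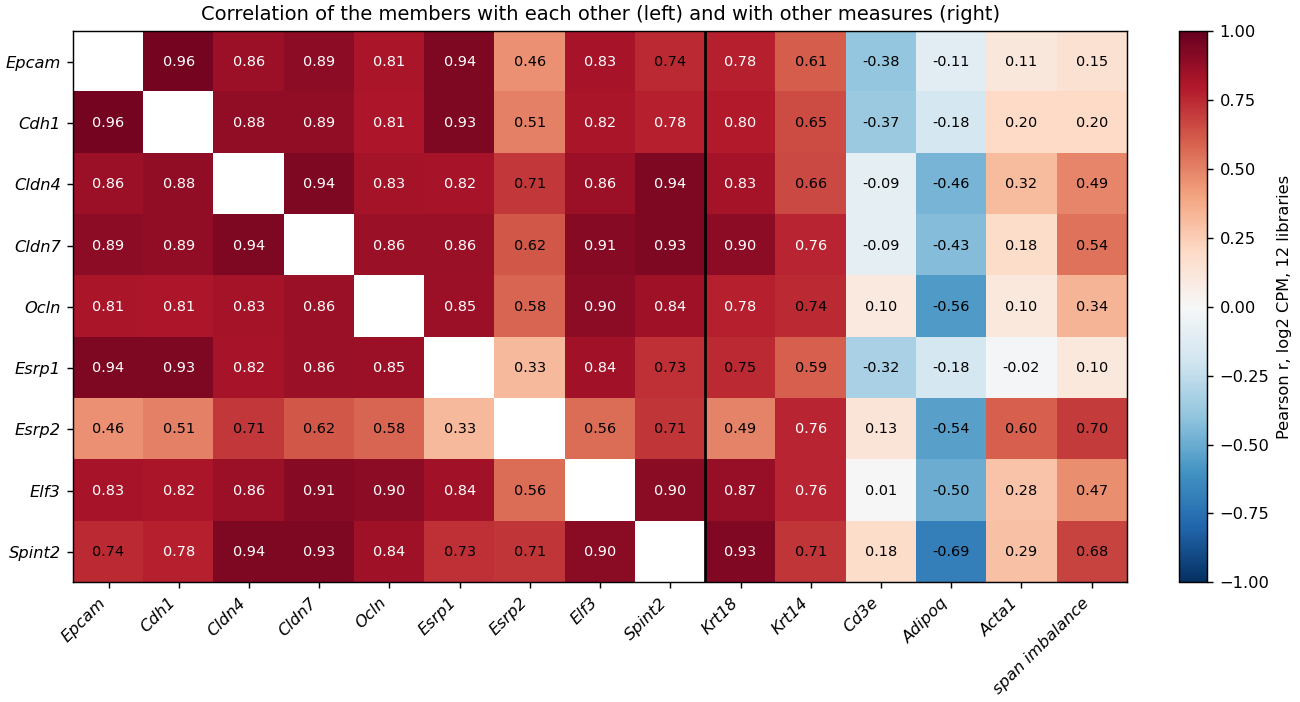
Each cell gives Pearson's r of log2 CPM over the 12 libraries between a row gene and a column gene or measure, with the 9 genes left of the line and 5 marker genes and the span imbalance right of it. Cells among the genes are mostly above 0.7, except in the row and column of Esrp2.

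The luminal keratin Krt18 moved with most of the genes. Its r lay between 0.493 with Esrp2 and 0.927 with Spint2, and 8 of the 9 genes had an adjusted p under 0.05 by r and 7 by rho. The share of all genes tested with such an r to Krt18, or to Krt14 below, is not given here. For Spint2, r was 0.927 and rho 0.965 (permutation p = 3e-05 and 1e-05, adjusted p = 0.00045 and 0.000257), and r was 0.938 without the 2 farthest libraries. For Cldn7, r was 0.896 and rho 0.930 (permutation p = 0.00015 and 7e-05, adjusted p = 0.00135 and 0.000787). For Epcam, r was 0.776 and rho 0.692 (permutation p = 0.00289 and 0.0156, adjusted p = 0.0108 and 0.0359). The basal keratin Krt14 gave an r between 0.595 and 0.764, with an adjusted p under 0.05 for 7 genes by r and for 1, Esrp2, by rho. Without the 2 farthest libraries of each gene, which differ between genes, its r lay between -0.004 and 0.694. These relations therefore rested in part on the libraries left out.

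Of the markers of other cells, the adipocyte gene Adipoq had an r between -0.687 with Spint2 and -0.114 with Epcam, and only Spint2 had an adjusted p under 0.05 (r = -0.687, permutation p = 0.00986, adjusted p = 0.0245; rho = -0.476, permutation p = 0.121). Without HFB 5, HFB 6 and CTL 14 r was positive for all 9 genes, between 0.201 and 0.489, so this relation rested on those libraries. The muscle gene Acta1 had an r between -0.02 and 0.596 and reached an adjusted p under 0.05 with 0 genes. The T cell gene Cd3e had an r between -0.383 and 0.184 over the 12 libraries, with 0 adjusted p-values under 0.05 by r or rho. In the 9 libraries without HFB 5, HFB 6 and CTL 14 its r lay between -0.877 and -0.647, and this was not tested. Cd3e did not pass the filter on low counts. Among those libraries it had 91 counts in HFB 1, 39 in HFB 2 and at most 9 in any other. HFB 1 and HFB 2 were also the lowest in the summed level of the 10 genes. Over the 12 libraries the span imbalance had an adjusted p under 0.05 with Esrp2 (r = 0.696, permutation p = 0.0122, adjusted p = 0.029; rho = 0.776) and by r with Spint2 (r = 0.679, permutation p = 0.0143, adjusted p = 0.0334; rho = 0.406). Without HFB 5, HFB 6 and CTL 14, r was 0.483 for Esrp2 and -0.347 for Spint2, and this was not tested. The 5 markers and the span imbalance were chosen for these correlations after the data had been seen.

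The genes whose log2 CPM was most like the mean of the 8 standardized genes were, among 9374 others, Irx3 (r = 0.966), Lalba (0.964), Spint1 (0.963), Aqp5 (0.959), Lsr (0.958), Krt19 (0.952), Sox10 (0.946), Lcn2 (0.944), Elf5 (0.943) and Cdcp1 (0.939), over 12 libraries. Lalba encodes the milk protein alpha-lactalbumin, Spint1 a protease inhibitor related to Spint2, Lsr a protein of tricellular tight junctions, and Elf5 an Ets factor of the luminal lineage. Each of them was at an adjusted p of 0.999 between the diets. The gene most like each single member was Tmem30b for Epcam (r = 0.968), Cdcp1 for Cdh1 (0.956), Irx3 for Cldn4 (0.961), Ppp1r1b for Cldn7 (0.962), Evpl for Ocln (0.906) and Esrp1 (0.947), Fam89a for Esrp2 (0.902) and Wfdc2 for Spint2 (0.977). These were the highest of 9374 values each and were not tested.

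The other junction genes did not all follow the 8. Their r with the mean of the 8 had a median of 0.000 over the 14 other tight junction genes tested and -0.140 over the 8 adherens junction partners, against -0.040 over all other genes tested. The F11r gene of junctional adhesion molecule A and the Tjp1 gene of the scaffold ZO-1, the most abundant of the tight junction list, had an r of -0.050 and -0.251, while Lsr reached 0.958. Among the adherens partners Ctnna1, alpha-catenin, had -0.358 and Jup, plakoglobin, 0.801. Of the other cadherins, Cdh2 had 0.425 and Cdh13 0.661. The 6 desmosome genes tested had a median of 0.723, from 0.122 for Ppl to 0.92, with Perp at 0.765. For the protease genes St14 and Prss8, which encode targets of the inhibitors Spint1 and Spint2, r was 0.925 and 0.854.

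Between the diets, 13 of 14 other tight junction genes tested and 8 of 8 adherens junction partners had a log2 fold change under 0, with medians of -0.17 and -0.35, against 50.0% of the genes tested. In the fit without HFB 5, HFB 6 and CTL 14 it was 9 of 16 tight junction genes and 8 of 8 partners, with medians of -0.13 and -0.18, against 48.1% of the genes tested. With the span imbalance as a covariate it was 9 of 14 and 8 of 8, with medians of -0.07 and -0.22. Of the 6 desmosome genes tested 5 were under 0, with a median of -0.455, and 6 in both of these other fits, with medians of -0.60 and -0.71. None passed the adjusted threshold. Over the 12 libraries the junctional adhesion gene Jam3 was the only gene of the related lists with an unadjusted p under 0.05, at -0.51 (-0.87 to -0.15, adjusted p = 0.999), with 18.9 CPM in HFB and 26.9 CPM in CTL, and it was at -0.43 without HFB 5, HFB 6 and CTL 14. In that fit 509 of the 9480 genes tested had an unadjusted p under 0.05. Of the related lists, cell markers apart, these included Lsr (-0.81), Jup (-0.40), Nectin4 (-0.73), Cdh11 (-0.61) and Krt18 beside Jam3. The adjusted p of each of these named genes was at least 0.876. The repressors of Cdh1, 5 tested, had a median of 0.03 (0.05 without the 3 libraries), with Twist1 at 0.09 and Zeb2 at -0.27, and at -0.0263 and 0.0471 without those libraries, both with the opposite sign. The luminal keratins Krt8 and Krt18 were at -0.01 and -0.18, and the basal Krt15 and Krt17 at -0.15 and -0.28. These keratins, without HFB 5, HFB 6 and CTL 14, were at -0.63, -1.01, -0.91 and -0.54, and the median was -0.84 over 3 luminal and -0.58 over 3 basal keratins, beside -0.67 for the 8 genes. With the span imbalance as a covariate the medians were -0.78, -0.94 and -0.70. The epithelial transcription factors Elf5 and Klf5 were at -0.34 and -0.36, and at -0.65 and -0.30 without the 3 libraries. Of the genes known as partners of Epcam, Cd9 was at -0.27 and Cd44 at -0.0762, and of transcripts known to be spliced under Esrp control, Ctnnd1 was at -0.41 and Scrib at -0.0419. Without the 3 libraries these were at -0.28, 0.0621, -0.21 and 0.0334, and 3 of the 6 Esrp-controlled transcripts were lower in HFB, where 6 of 6 were over the 12 libraries. Gene counts do not show the splice forms.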

How the data were processed

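The authors deposited a table of raw counts of reads per gene for 12 libraries, listed by Entrez identifier and not normalized. The submitters' processing notes name CASAVA 1.8, bcl2fastq, TopHat, DESeq and the rn4 build. The counting program, the annotation and the use of strand are not given in the sources used here. Of 16511 identifiers, 16351 matched a symbol in the RefSeq table of the GRCr8 assembly. From that table only names and the length each gene spans were used, the latter for the span imbalance, and the lengths may differ from those in rn4. Total counts were 2320267 to 2944680 per library.

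The diets were compared by the quasi-likelihood test of edgeR 4.0.16 (R 4.3.3) after TMM scaling and filterByExpr, and p-values were adjusted over the 9382 genes kept (Benjamini-Hochberg). log2 CPM used a prior count of 2. Correlations used 100000 permutations in Python 3.11.15. The adjustment covered the pairs of genes together with the marker genes and the span imbalance, a larger family than the pairs first planned. The alternatives were DESeq2 1.42.0, its size factors and upper-quartile scaling in edgeR, dropping the filter, a minimum of 10 counts in each library, Krt8 and Krt18 as a covariate, a prior count of 0.5, Spearman's rho, deviations from diet means and leaving out each library. The span imbalance, the 5 marker genes of the correlations, the motifs, and the fits without HFB 5, HFB 6 and CTL 14, without HFB 6 and CTL 14 and with the span imbalance as a covariate were chosen after the data had been seen. The members and lists were chosen with earlier results of these data known. Named were the 10 members, the 2 most abundant genes of each related list, any gene of those lists with an unadjusted p under 0.05 over the 12 libraries, the 10 genes most like the members' mean and the gene most like each member. Cell markers apart, genes of those lists with such a p without HFB 5, HFB 6 and CTL 14 were named too. Cldn5, Pecam1, Tek and Cdh5 were named after their values were seen. In all, 137 of 155 list entries were found in the table. Limits of 3 counts cover counting error only. The tests of the diets and of the correlations were tested on simulated data.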

Additional observations from a re-analysis of the deposited data

Results flagged for a closer look

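In 46 groups of 6 libraries, 5 values stood far from the others of their diet, measured as the gap to the nearest library divided by the range of the diet. Chance marks about 1 group in 20. The span imbalance was among the measures looked at, and no library was flagged for it. The total of HFB 1, 2320267 counts, was low among HFB libraries (0.701), and that of CTL 7, 2944680 counts, was high among CTL libraries (0.692). HFB 1 was also the library with the lowest CPM for each of the 8 genes tested, after scaling for the total. The log2 summed CPM of the adipocyte markers was low in HFB 6 (14.05, 0.751) and in CTL 14 (13.80, 0.797). That of the erythroid markers was high in CTL 9 among CTL libraries (15.05, 0.736), and CTL 9 had the lowest summed CPM of the 10 genes among them. What part these values have in the levels of the 10 genes was not tested.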

How the results depend on the processing

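No paired analysis was possible because HFB and CTL libraries carry different numbers. In the 21 alternatives, as in the fit reported, 0 genes passed the adjusted threshold. The genes with an unadjusted p under 0.05, 220 in the fit reported, numbered 731 with the keratin covariate. They numbered 509 without HFB 5, HFB 6 and CTL 14, 431 without HFB 6 and CTL 14 and 399 with the span imbalance as a covariate, alternatives chosen after the data had been seen. Leaving out 1 library gave 135 (HFB 5) to 587 (CTL 14), with 378 for HFB 1, 389 for HFB 4, 137 for CTL 11 and 141 for CTL 7 and for CTL 10. The cause was not tested. Under a minimum of 10 counts in each library 5 of the 10 genes were tested and 5 were lower in HFB, and 6 to 9 were lower when 1 library was left out. Of 173 log2 fold changes of the 9 genes with reads under alternatives, 165 kept their direction and 8 reversed. Those of Elf3 were set against its value with no filter. Spint2 was at 0.0198 with the keratin covariate. Leaving out 1 library, Spint2 ranged from -0.44 to 0.21, Cldn7 from -0.59 to 0.11 and Elf3, in the 7 such fits whose filter it passed, from -0.37 to 0.077. The cause was not tested. Apart from these alternatives, an exact test of the difference in mean log2 CPM used the 924 assignments of libraries to diets. It gave an adjusted p of at least 0.4675 for each of the 9 genes with reads. That difference was -0.52 for Cldn4, -0.43 for Cldn7, -0.26 for Spint2, -0.43 for Elf3 and, nearer to 0 than the fitted value, -0.44 for Ocln. The median pairwise r lay between 0.755 and 0.913 under its alternatives, and was 0.729 within CTL. It was 0.731 without the 2 libraries farthest from the median of 1 gene of each pair. The median SD lay between 0.692 and 0.838. At this depth Elf3, Esrp1 and Ocln rest on at most 24, 31 and 47 counts in a library, which limits what could be detected for them.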

Other observations

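Markers of other cell types differed widely between glands. The skeletal muscle markers (6 of 6 in the table, led by Acta1) summed to between 192 CPM in CTL 10 and 6884 CPM in CTL 11, with HFB 6 at 6811 CPM and HFB 3 at 6158 CPM. The erythroid markers (4 of 5, led by Hbb) ran from 5762 CPM in CTL 10 to 55594 CPM in HFB 2, and the fibroblast markers (5 of 5, led by Col1a1) from 14272 CPM in CTL 14 to 31564 CPM in HFB 5. The myoepithelial and smooth muscle markers (4 of 5, led by Tagln) summed to 847 CPM in HFB 6 and 947 CPM in CTL 14 and to between 102.4 and 342 CPM in the other libraries. Tagln, Myh11 and Cnn1 were highest in HFB 6 and CTL 14, while Oxtr was lowest there, with 0.775 and 2.08 CPM against 12.9 to 72.4 CPM elsewhere. The endothelial markers (4 of 5, led by Pecam1, with Cldn5 at 0) summed to 295 and 313 CPM in these libraries and to between 96.5 and 166 CPM elsewhere, through Pecam1 alone. Pecam1 was at 248 and 236 CPM there and between 27.2 and 60.2 CPM elsewhere, while Tek, at 44.6 and 50.2 CPM, lay within the range of the others, and Cdh5 was lowest in HFB 6 with 2.71 CPM and at 27.0 CPM in CTL 14. Skin keratinocyte markers (4 of 7, led by Sbsn) summed to between 6.06 and 37.2 CPM, with a mean of 12.8 CPM in HFB and 20.1 CPM in CTL. The Langerhans and dendritic markers (3 of 5, led by Ccr7) lay between 0.83 and 55.0 CPM. The part of these cells in the levels of the epithelial genes was not tested.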
